A study of Mus musculus with 9 samples.

Results

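The Nkain family and the beta subunits of the sodium pump were followed in SB28 mouse glioma cells and in libraries labelled astrocytes. The 7 genes, Nkain1, Nkain2, Nkain3, Nkain4, Atp1b1, Atp1b2 and Atp1b3, were found by symbol among the 24421 rows of the deposited count table. They were chosen by the measured rise of Nkain4 in the astrocyte libraries and the measured fall of Nkain2 after BAL101553, so these 2 differences are described here without a test. The table holds 9 libraries in 3 groups of 3. Control and BAL101553 libraries came from SB28, 1 cell line derived from C57BL/6 mice that carries GFP and luciferase, grown in the brains of C57BL/6 mice that were 6 to 8 weeks old at implantation. Control mice received vehicle and were taken at day 21. Mice of the other group received BAL101553, an oral prodrug of a microtubule-disrupting compound, and were taken at day 33 or 35, both days being given in the paper, so that treatment and time of growth cannot be told apart. The third group, termed Astro below, is labelled as astrocytes with BAL101553 as its treatment, and the paper does not describe it. SB28 cells were sorted as GFP+ CD45- CD11b- cells per the Methods, whereas the labels call the material whole tissue. The Methods describe 2 ex vivo samples per group, and the table holds 3. The paper names a different deposit for its sequencing data, so its details of mice, harvest and sorting are assumed to apply to these libraries. The labels do not state that libraries of a group came from separate mice, so p-values measure the spread between these libraries only.

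The sodium pump, or Na,K-ATPase, moves sodium out of the cell and potassium in at the cost of ATP. Its alpha subunit carries out transport, its glycosylated beta subunit is needed for folding and delivery of the pump to the membrane, and small FXYD proteins adjust its activity. Atp1b2, also known as adhesion molecule on glia, is the main beta subunit of astrocytes, while Atp1b1 is found in many tissues. Nkain proteins are small membrane proteins named for their binding to the beta1 subunit, and they are found mostly in the nervous system.

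Promoter sequences are shown because the members differed so widely in level between groups. RefSeq windows on GRCm38.p6 covering the 250 bases before the start annotated in RefSeq were available for 4 of the 7 members, and 1 window is given for each. They hold, in each family, 1 gene with many reads in SB28 cells (Nkain1, Atp1b3) and 1 with few (Nkain2, Atp1b1). All 4 lie on the minus strand and are written 5′ to 3′ on that strand, with CG dinucleotides in capitals. They cover chr4:130574037-130574286, chr10:32889916-32890165, chr1:164458356-164458605 and chr9:96364432-96364681, in the order shown.
Nkain1: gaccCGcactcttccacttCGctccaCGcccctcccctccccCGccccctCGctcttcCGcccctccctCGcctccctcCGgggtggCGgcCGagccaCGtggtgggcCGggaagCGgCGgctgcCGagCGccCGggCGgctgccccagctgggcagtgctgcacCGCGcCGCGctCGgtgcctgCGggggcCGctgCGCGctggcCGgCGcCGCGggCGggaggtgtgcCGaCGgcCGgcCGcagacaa
Nkain2: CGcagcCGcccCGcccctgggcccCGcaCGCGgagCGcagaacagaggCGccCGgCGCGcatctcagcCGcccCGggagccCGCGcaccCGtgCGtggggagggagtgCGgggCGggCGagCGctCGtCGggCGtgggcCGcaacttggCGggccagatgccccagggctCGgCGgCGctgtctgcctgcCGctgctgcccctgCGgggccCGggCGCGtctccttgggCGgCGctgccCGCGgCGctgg
Atp1b1: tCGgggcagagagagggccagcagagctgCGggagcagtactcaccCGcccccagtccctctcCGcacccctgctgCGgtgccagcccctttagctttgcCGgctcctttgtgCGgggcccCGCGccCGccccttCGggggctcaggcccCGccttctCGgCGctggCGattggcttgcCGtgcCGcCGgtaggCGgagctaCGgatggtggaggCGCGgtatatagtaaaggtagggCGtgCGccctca
Atp1b3: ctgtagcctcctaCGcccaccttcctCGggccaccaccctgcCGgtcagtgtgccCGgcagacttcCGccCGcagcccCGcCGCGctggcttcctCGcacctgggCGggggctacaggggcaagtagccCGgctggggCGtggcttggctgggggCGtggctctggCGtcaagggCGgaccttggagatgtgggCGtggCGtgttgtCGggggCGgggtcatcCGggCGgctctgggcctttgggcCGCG

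These windows held 36 CG dinucleotides for Nkain1, 39 for Nkain2, 24 for Atp1b1 and 24 for Atp1b3, beside a median of 6 over 32851 promoters. Nkain2, near 0 in SB28 cells after BAL101553, thus had more CG dinucleotides than 98.4% of promoters. Nkain1, abundant in SB28 cells, had more than 97.4% of promoters, and Atp1b1 and Atp1b3 each had more than 88.0%. The letters GGGCGG, read on both strands, were present in all 4 windows and in 32.7% of all promoters. CCAAT was present in the Atp1b1 window only, against 33.8% of all promoters, and TATAAA in none of the 4, against 12.4%. A second window of Atp1b3, not printed, held 35 CG dinucleotides and none of these motifs, GGGCGG included. These counts describe the sequence only, since no methylation or binding was measured. The gene spans given below come from GENCODE, whose starts differ from those of RefSeq for some members. By these spans, the Nkain2 window lay wholly inside the gene, and the printed windows of Nkain1 and Atp1b3 lay partly inside theirs.

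Between 22919523 and 34013875 reads were counted per library, and a count of 0 allows a level of up to 0.0884 to 0.135 CPM (counts scaled to a common library total), taken as 3 counts. This floor covers counting error only. CPM here are scaled by edgeR's TMM over the 9 libraries. Libraries of the same group differed by more than sampling noise, with a ratio of chi-square to its degrees of freedom from 14.3 to 64.9. Of the 8 astrocyte markers, all 8 were called higher in Astro than in BAL101553 libraries by edgeR's quasi-likelihood test (adjusted p under 0.05), where 46.3% of all genes were higher, with summed levels of 12000 to 14750 CPM. The 6 oligodendrocyte markers summed to 10280 to 12720 CPM in the same libraries, choroid plexus markers to 1701 to 4024 CPM, ependymal markers to 532.9 to 877.6 CPM and microglial and macrophage markers to 478.6 to 1042 CPM, whereas neuronal markers reached 15.11 to 17.63 CPM. Markers of several brain cell types were thus present in the Astro libraries beside those of astrocytes. In the 6 SB28 libraries, oligodendrocyte markers summed to between 15.32 and 20.59 CPM and microglial and macrophage markers to between 2.15 and 4.98 CPM. Astrocyte markers summed to between 680.8 and 971.6 CPM there, mostly from Gja1. Endothelial markers summed to between 516 and 867.9 CPM, mostly from Cdh5, against 180.6 to 209.8 CPM in Astro libraries. Neuronal markers summed to 34.64 to 79.35 CPM in Control and 17.6 to 43.23 CPM in BAL101553 libraries, mostly from Stmn2 and Nefl, while Rbfox3 had 0 reads. In bulk RNA, fewer cells of a type and less RNA per cell cannot be told apart.

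Members were compared with each other per kilobase of annotated exons. In Control libraries, Nkain1 (87.8 CPM per kb) and Atp1b3 (67.2) led, their ranges did not overlap, and no other member exceeded a mean of 0.298 CPM per kb. In BAL101553 libraries, Atp1b3 (61.9 CPM per kb) and Nkain1 (58.4) again led, with overlapping ranges. In Astro libraries the order was Atp1b2 (584.6 CPM per kb), Nkain1 (265.5), Atp1b3 (159.5), Nkain4 (83.8), Atp1b1 (53.1), Nkain2 (24.8) and Nkain3 (0.0114), and the ranges of neighbors in that order did not overlap. Among the low members of the SB28 groups, Nkain2 and Atp1b2 overlapped in Control, as did Atp1b2 and Atp1b1. SB28 cells thus had 1 abundant member of each family.

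**Figure D1:**
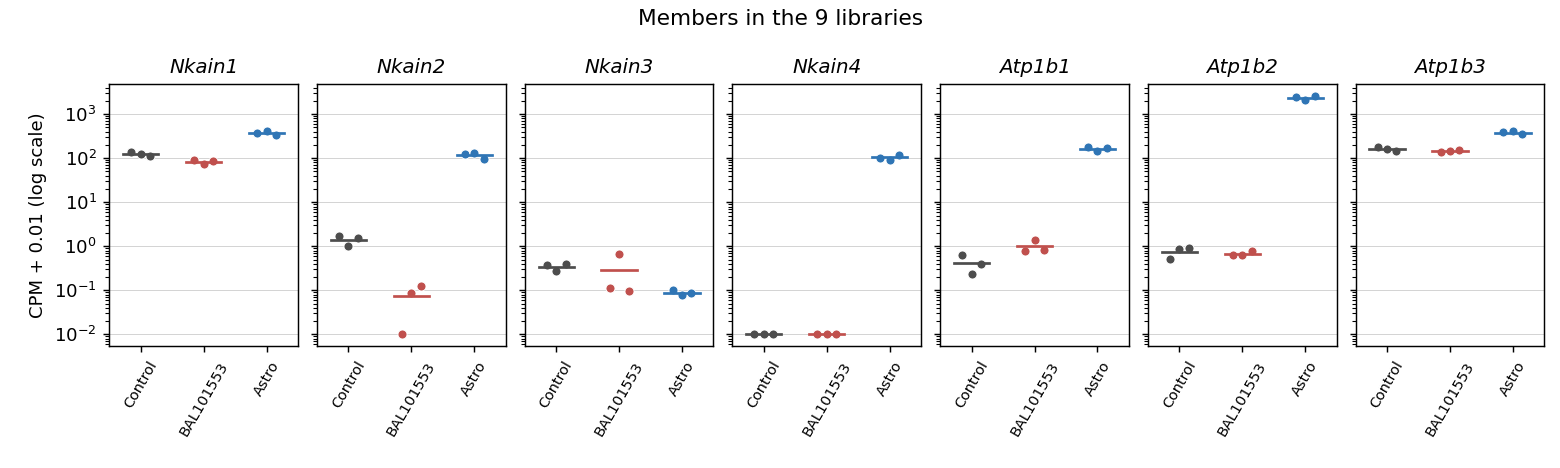
Level of each of the 7 members in the 9 libraries, in CPM with 0.01 added on a log axis, with 1 point per library and a line at the group mean. Nkain4 sits at 0 CPM in the 6 Control and BAL101553 libraries and at 91.78 to 118 CPM in Astro, whereas Nkain1 and Atp1b3 are high in all 3 groups.

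BAL101553 libraries were set against Control libraries, and these groups differ in both treatment and day of harvest. Of the 7 members, 5 passed the filter on low counts. Nkain2 was chosen for its fall, so no call is counted for it. Of the other 4, Nkain1 was lower at an adjusted p under 0.05 and 3 did not pass, while 14.7% of all 12633 genes passed, 8.64% as higher and 6.09% as lower. Since the family was picked with results of this comparison known, nothing is read from that count. Of the same 4, the groups did not overlap for Nkain1, lower, and Atp1b1, higher. Among all genes tested, 19.6% had no overlap with lower levels and 20.1% with higher levels.

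Nkain1 was the abundant Nkain gene of SB28 cells (chr4:130531602-130574173). Its levels were 138.9, 126.4 and 110.4 CPM in Control libraries and 90.67, 72.8 and 86.35 CPM in BAL101553 libraries. Every BAL101553 library lay below every Control library. The mean was 125.2 ± 14.3 CPM (SD, n = 3) in Control and 83.3 ± 9.32 CPM (SD, n = 3) after BAL101553, with -0.58 as log2 fold change (standard error 0.12, adjusted p = 0.0228 in edgeR's quasi-likelihood test). The call was lost without Control 1 (-0.50, adjusted p = 0.0681), without Control 3 (-0.67, adjusted p = 0.0540) or without BAL101553 3 (-0.61, adjusted p = 0.0597, same test), and was kept in 10 of 13 alternatives.

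Nkain2 had few reads in SB28 cells (chr10:31689310-32890462). It had 38, 26 and 36 reads in Control libraries and 0, 2 and 4 reads in BAL101553 libraries, or 1.705, 0.985 and 1.515 CPM against 0, 0.0789 and 0.118 CPM. The groups did not overlap, and the BAL101553 libraries lay at or near the level of 3 counts. Summed over libraries, 6 reads stood against 100, a ratio of 0.0491 after scaling. The fitted log2 fold change was -4.28 and lay between -5.06 and -3.73 across the alternatives. The gene was chosen for this fall, so no interval is given for it. Its mean in Control was 1.2% of that in Astro libraries and its mean after BAL101553 was 0.0562% of it. The same measure was taken for markers of other brain cells. Oligodendrocyte markers stood at a median of 0.0456% of Astro in Control (range 0.0373% to 0.517% over 6 genes) and at 0.0302% after BAL101553 (range 0.0256% to 0.462%). Microglial and macrophage markers stood at a median of 0.482% in Control (range 0.16% to 2.61% over 8 genes) and 0.418% after BAL101553 (range 0.223% to 1.1%). Nkain2 in Control lay above all 6 oligodendrocyte markers. Of the microglial and macrophage markers, only P2ry12 (2.61%) and Ptprc (1.55%) stood higher than Nkain2. Choroid plexus markers (0.263% to 0.656% in Control) and ependymal markers (0% to 0.961%) stood lower, and endothelial markers (1.6% to 3810%) higher. Astrocyte markers (0.0213% to 59.9%) and neuronal markers (0% to 2930%) lay on both sides. Of 4 microglial and macrophage markers tested, P2ry12 was lower after BAL101553, at 0.463 CPM against 1.74 CPM (log2 fold change -1.88, adjusted p = 0.0313, edgeR's quasi-likelihood test). The other 3 did not pass, and Csf1r had 0.602 CPM against 0.387 CPM, higher without overlap. Of tested markers in the other lists, Gja1 (911.3 to 701.6 CPM) and Cdh5 (764.2 to 530.2 CPM) were also called lower. Nefl (24.5 to 5.5 CPM), Tek (6.93 to 1.89 CPM), Cldn11, Mag, Mbp and Aldh1l1 were lower without overlap but did not pass. Slc1a3 (0.635 to 1.89 CPM) was called higher. The part of microglia or of other brain cells in the levels of Nkain1 and Nkain2 was not tested.

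Of the genes next to Nkain2, Rnf217, 80126 bases away, had 43.5 CPM in Control and 29.8 CPM after BAL101553, with overlapping groups (log2 fold change -0.54, standard error 0.21, adjusted p = 0.117, edgeR's quasi-likelihood test). Trdn on the other side had no reads in the 6 SB28 libraries, which allows up to 3 counts per library.

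Nkain3 and Nkain4 failed the filter on low counts. Nkain3 (chr4:20118874-20778866) had 8, 7 and 9 reads in Control and 3, 17 and 3 in BAL101553 libraries, so that BAL101553 2 stood apart from the other two. The ratio of summed reads was 0.784 (95% interval 0.423 to 1.45, counting error only). Nkain4 (chr2:180934772-180954699) had 0 reads in all 6 SB28 libraries.

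Among the beta subunits, Atp1b3 carried nearly all reads in SB28 cells (chr9:96332655-96364442). It had 176.2, 163 and 142.1 CPM in Control and 142, 146 and 155.9 CPM in BAL101553 libraries. The groups overlapped, and the log2 fold change was -0.11 (SE 0.10, adjusted p = 0.477, edgeR's quasi-likelihood test), and no alternative gave a call. Atp1b1 (chr1:164437109-164458355) had 14, 6 and 9 reads in Control and 23, 35 and 27 in BAL101553 libraries. These were 0.628, 0.227 and 0.379 CPM against 0.787, 1.38 and 0.795 CPM, and every BAL101553 library lay above every Control library. Its log2 fold change of 1.27 (standard error 0.46) did not pass the test, with an adjusted p of 0.0980 in edgeR's quasi-likelihood test, but passed when all 9 libraries shared 1 model (1.26, adjusted p = 0.0368). Exons of Atp1b1 overlap those of Nme7 on the opposite strand. The libraries were stranded, but the strand setting of the counting is not given in the sources used here, so low Atp1b1 counts are uncertain.

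Atp1b2 (chr11:69599736-69605942), the glial beta subunit, had 11, 23 and 21 reads in Control and 18, 16 and 26 in BAL101553 libraries. All 6 levels lay between 0.494 and 0.884 CPM and the groups overlapped (log2 fold change -0.15, standard error 0.35, adjusted p = 0.781, edgeR's quasi-likelihood test). The level was 0.0314% of Astro in Control and 0.0281% after BAL101553, below the range of the oligodendrocyte markers in Control and inside it after BAL101553. Among astrocyte markers, Slc1a2 stood at 0.0242% and 0.0275%, Aqp4 at 0.0284% and 0.0162%, and Slc1a3 at 0.0213% and 0.0633%. The rest of that list stood higher than Atp1b2 in both groups. The source of these reads was not tested.

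**Figure D2:**
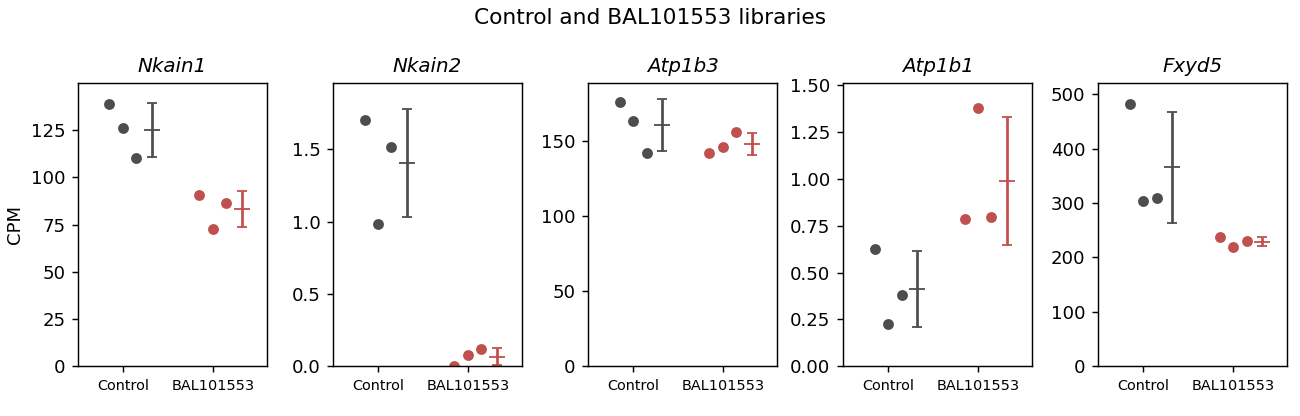
Levels in CPM (linear axis from 0) of 4 members and of the pump regulator Fxyd5 in the 3 Control and 3 BAL101553 libraries, with 1 point per library and mean ± SD beside them. Nkain1 and Nkain2 lie lower and Atp1b1 higher in every BAL101553 library than in any Control library, while Atp1b3 overlaps.

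The other genes of the sodium pump and of transport driven by the sodium gradient were read from 8 lists with 43 genes, of which 25 were tested. At the same threshold in edgeR's test, 4 were higher after BAL101553, 1 was lower and 20 did not pass, beside the 8.64% and 6.09% of all genes given above, with a median log2 fold change of 0.24 beside 0.02 over all genes. The 4 calls described here depended on single libraries. Fxyd5, a regulator also known as dysadherin, had 482.6, 304.1 and 310 CPM in Control and 237.4, 219.3 and 231 CPM after BAL101553 (log2 fold change -0.67, standard error 0.18, adjusted p = 0.0459, edgeR's quasi-likelihood test), and kept its call in 1 of 6 fits that left out 1 library. Slc5a3, the sodium-driven inositol carrier, rose from 189.7 ± 100.2 to 461.2 ± 46.4 CPM (SD, n = 3; log2 fold change 1.29, adjusted p = 0.0412) and also kept its call in 1 of 6 such edgeR fits. Slc1a3, a glial glutamate carrier, had 0.635 CPM in Control and 1.89 CPM after BAL101553 (adjusted p = 0.0403, 1 of 6), and Slc4a7, a sodium bicarbonate carrier, 87.1 and 126.8 CPM (adjusted p = 0.0434, 2 of 6, both edgeR's quasi-likelihood test). The number of list genes called fell from 5 to 1 without Control 1, Control 3 or BAL101553 3 and to 2 without BAL101553 1.

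The libraries labelled astrocytes were then set against the BAL101553 libraries, which carry the same treatment label. The comparison shares the BAL101553 libraries with the one above, so the results are not independent of each other. Of the 7 members, 6 passed the filter on low counts. No call is counted for Nkain4 and Nkain2, whose levels in these libraries were part of the choice. The other 4 were higher in Astro at an adjusted p under 0.05, where 85.1% of 15314 genes passed, 46.3% as higher and 38.9% as lower. The groups did not overlap for these 4, as for 47.6% of all genes with higher levels and 40.2% with lower levels. These shares are so large that the count of members says nothing particular about them.

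Nkain4 had 3302, 2661 and 3127 reads in Astro libraries and 0 in each BAL101553 library. This was 101.8, 91.78 and 118 CPM, and the lowest Astro library was at least 775-fold higher than the highest floor of a BAL101553 library, 0.118 CPM at 3 counts. The gene was chosen for this rise. An exon of Nkain4 overlaps the antisense gene Gm14341, which the table does not list. Its neighbor Birc7, 762 bases away, had 0.454 CPM in Astro and 0 reads in SB28 cells. Arfgap1, 12526 bases away on the other side, was lower in Astro (log2 fold change -0.81, standard error 0.08, adjusted p = 2.09e-05, edgeR's quasi-likelihood test), at 57.3 CPM against 101.5 CPM in BAL101553 libraries.

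Nkain2 had 124.1, 130 and 96.1 CPM in Astro libraries, with 4027, 3770 and 2546 reads. The levels compare with at most 0.118 CPM in BAL101553 libraries and at most 1.705 CPM in Control. No test is read for it, since its low level in the BAL101553 libraries was part of the choice. Rnf217 next to it went the other way, from 29.8 to 3.8 CPM (log2 fold change -2.95, adjusted p = 4.54e-06, edgeR's quasi-likelihood test).

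Nkain1 had 382.5, 411.7 and 341.6 CPM in Astro libraries, each above every SB28 library (log2 fold change against BAL101553 2.20, standard error 0.13, adjusted p = 1.06e-06, edgeR's quasi-likelihood test, 4.59-fold). It was the most abundant Nkain gene there too, with 70.9% of the family sum per kb, before Nkain4 with 22.5% and Nkain2 with 6.6%. Nkain3 had 3, 2 and 2 reads in Astro libraries and was not tested, the fewest of any member in that group.

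Atp1b2 showed the largest difference of the 3 beta subunits. Astro libraries had 2498, 2101 and 2565 CPM, against 0.616 to 0.766 CPM in BAL101553 libraries, or 11.79 as log2 fold change (SE 0.19, adjusted p = 6.94e-09, edgeR's quasi-likelihood test). Atp1b1 had 175.4, 142.9 and 172.9 CPM, 170-fold above BAL101553 (log2 fold change 7.41, standard error 0.20, adjusted p = 3.06e-08, same test). Atp1b3, the SB28 subunit, was higher too, at 385.8, 408.2 and 348.8 CPM, but by 1.38 only on the log2 scale (SE 0.10, adjusted p = 3.33e-06, same test).

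Library size cancels out in the share of each subunit within its family, per kb. Atp1b3 made up 99.5% ± 0.0806 of the beta subunits in Control, 99.2% ± 0.172 after BAL101553 and 20.1% ± 2.94 in Astro libraries (SD, n = 3). Atp1b2 made up 0.279%, 0.263% and 73.2%, and Atp1b1 0.196%, 0.515% and 6.65%. Between Astro and BAL101553, all 3 shares were separated without overlap, with p = 0.1 in a two-sided exact permutation test, the smallest that 3 against 3 allow (adjusted p = 0.12 over 6 tests). Between BAL101553 and Control the same p was reached for Atp1b1 and Atp1b3, and p = 0.9 in the exact permutation test for Atp1b2. The summed beta subunits were at 67.5, 62.4 and 797 CPM per kb in Control, BAL101553 and Astro libraries.

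**Figure D3:**
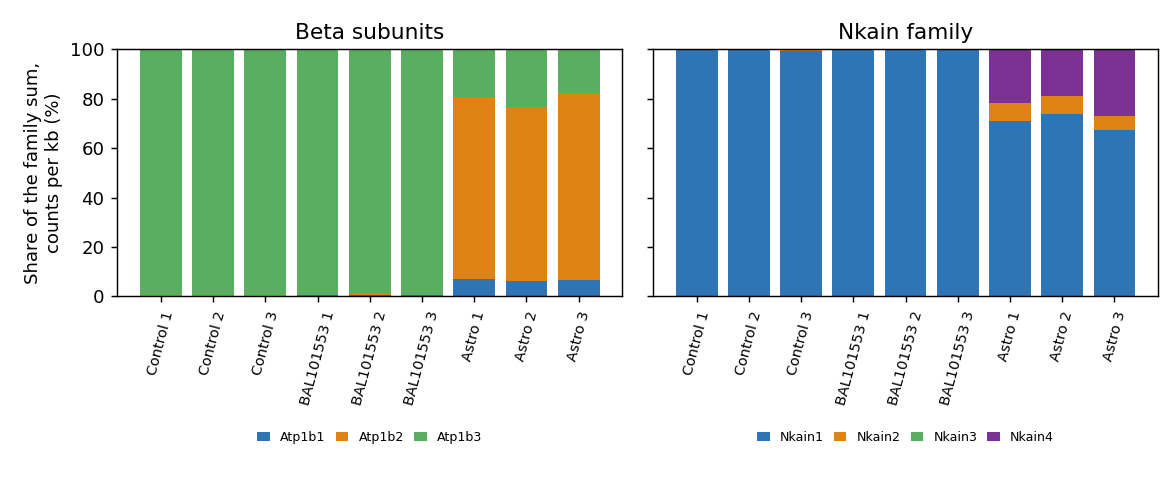
Share of each gene in the summed counts per kb of its family, in percent, for the beta subunits and the Nkain genes, with 1 bar per library. Atp1b3 fills 99.2% to 99.5% of the beta bars in SB28 groups on average and 20.1% in Astro, where Atp1b2 holds 73.2%.

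Of the 43 listed pump and transport genes, 36 were tested and 22 were higher and 9 lower in Astro, with 5 not past the threshold. Since 85.1% of all genes passed here, these counts and those of the lists below describe the lists and show nothing particular to them. The median log2 fold change was 4.14, or 3.51 with Fxyd4, which had 0 reads in BAL101553 libraries, at its lower bound, beside 0.18 over all genes. The FXYD regulators split, with 4 higher and 1 lower of 5 tested. Fxyd1, or phospholemman, was at 85.7 CPM in Astro and 0.0328 CPM in BAL101553 libraries, whereas Fxyd5 fell from 229.2 to 12.2 CPM (log2 fold change -4.22, adjusted p = 3.31e-07, edgeR's quasi-likelihood test).

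All 13 carriers that use the sodium gradient passed, 9 higher and 4 lower. The glutamate carrier Slc1a2 reached 5168 CPM and the GABA carrier Slc6a11 reached 1668 CPM in Astro, against 1.42 and 0.304 CPM in BAL101553 libraries. Slc5a3 had the largest fall of the list, from 461.2 to 51.9 CPM (log2 fold change -3.14, adjusted p = 9.37e-08, edgeR's quasi-likelihood test). Both potassium channels of the buffering list, Kcnj10 and Kcnj16, were higher, at 963.3 and 117.9 CPM against 0.229 and 0.0132 CPM. Of 7 calcium pumps, 4 were higher and 1, Atp2b1, was lower (log2 fold change -1.17, adjusted p = 1.11e-05, same test), and of 5 kinases and ligases 1 was higher and 2 were lower. The oligodendrocyte, choroid plexus, ependymal and microglial markers given above were higher in the same libraries, and their part in these differences was not tested.

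**Figure D4:**
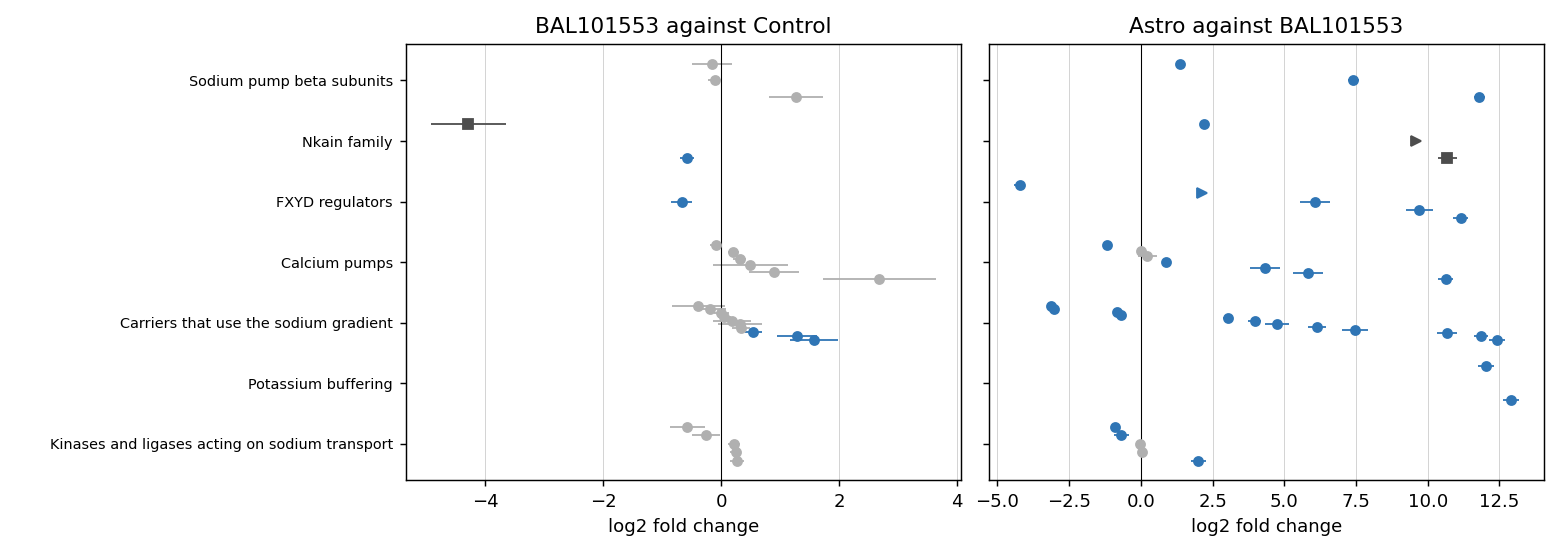
Log2 fold change with standard error of tested members and listed genes, by list, for BAL101553 against Control (left) and Astro against BAL101553 (right), in blue where the adjusted p was under 0.05 and gray otherwise. Dark symbols are Nkain2 and Nkain4, for which no call is shown because they were chosen by these differences or levels, and triangles are lower bounds for genes with 0 reads in BAL101553 libraries. The beta subunits all lie above 0 in the right panel, from 1.38 to 11.79, and the carriers lie on both sides of 0.

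The genes whose log2 CPM followed each member most closely over the 9 libraries were found among 13674 genes, by Pearson's r as a description. The points share the contrast between 6 SB28 and 3 Astro libraries, which sets most of r. For Nkain1 these were Cers2, Nell2 and Nudt16 (r between 0.9917 and 0.9935), and for Nkain2 Dmwd, Taldo1 and Rgs7 (0.9957 to 0.9976). Dmwd had 83.1 CPM in Control, 69.7 CPM after BAL101553 and 119 CPM in Astro, and Taldo1 had 116, 76.4 and 261 CPM. Rgs7, which encodes a regulator of G protein signaling, had 0.659 CPM in Control, 0.0196 CPM after BAL101553 and 16.8 CPM in Astro. For Nkain4 they were Nat1, Nat8 and Sypl2, which have 0 reads in all 6 SB28 libraries as Nkain4 does. For Atp1b2 they were Nap1l5, Lhfpl4 and Raver2 (0.9993 to 0.9994), and for Atp1b1 Sh3bp5, Tmem100 and Alpk1 (0.9988 to 0.999). Rnf141 and Tmem125 were closest to Atp1b3 beside a row whose name had been turned into a date.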

How the data were processed

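RNA of 9 libraries was sequenced by the authors from stranded libraries with reads of 50 bases, mapped with TopHat to mm10 and counted per gene, with HTSeq 0.6.1 named in the submitters' processing notes. The table deposited by the authors gives whole-number counts without normalization. The counter's strand setting, the gene annotation and the treatment of reads shared between genes are not given in the sources used here. Columns were matched to samples by name, and groups were taken from the labels.

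The main test was the two-sided quasi-likelihood test of edgeR 4.0.16 under R 4.3.3, with DESeq2 1.42.0 as an alternative. Each fit held the 2 groups compared, TMM scaling and the genes that filterByExpr kept. P-values were adjusted by Benjamini-Hochberg over every gene in the fit and called under 0.05. Levels are CPM scaled over all 9 libraries, with 3 counts as the floor. Standard errors (SE) were obtained as the absolute log2 fold change over the root of the F statistic. Likeness was taken on log2 CPM (prior count 2) over genes with a mean of at least 1 CPM. Exon lengths, positions and neighbors came from GENCODE on GRCm38, in which 23350 of 24421 names matched, and promoters from RefSeq. The 27 rows with names turned into dates stayed in sizes and tests. The edgeR and DESeq2 fits of BAL101553 against Control were also run on simulated counts, and the other steps were not.

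The members, the gene lists and the tests were chosen with earlier results of these data known. Named genes were the members, list genes with the highest level or the highest or lowest called fold change, the neighbors of Nkain2 and Nkain4, and the 3 genes most like each member; Slc4a7, Slc1a3 and other list genes were named where a count of 5 or fewer or a pair needed them. A few genes of the lists are not reported here, while counts and medians use each list whole. Alternatives were other scalings, a filter of 1 count in any library, a filter of 10 counts in every library, DESeq2's Wald test, 1 model over 9 libraries, each library left out and the replicate number as a block. Shares by coding length were added after the data were seen.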

Additional observations from a re-analysis of the deposited data

How the results depend on the processing

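Of 235 alternatives for members, counts and shares, 214 stayed the same, 2 were reversed, 3 were weaker, 1 was stronger and 15 moved. Staying the same meant, for tested members, an unchanged direction and side of the threshold. For counts of genes it meant a change within a preset ratio, and for shares an unchanged sign, as no share could pass the threshold. For the fall of Nkain2 and the least fold of Nkain4 it meant a change below the SD of replicates. Larger changes counted as moved. The tally includes 12 fits of Nkain2 in Astro against BAL101553, from which nothing is read. Of 279 alternatives for listed pump genes, 251 kept direction and side of the threshold, 22 were weaker and 6 stronger. Between BAL101553 and Control, 1860 genes were called (58.7% higher), 2832 with DESeq2's Wald test, 3022 with all 9 libraries in 1 model and 193 to 1712 with 1 library left out (193 without Control 3, 458 without Control 1, 668 without BAL101553 3). Scaling by total library size gave 77.4% higher calls and a median log2 fold change of 0.10 in place of 0.02; between Astro and BAL101553 that median was 0.18, and 0.24 or 0.39 with DESeq2 size factors or total library size. Nkain1 lay between -0.67 and -0.50 (log2) and Nkain2 between -5.06 and -3.73 with 1 library left out. Atp1b1 passed with all 9 libraries (1.26). The least fold of Nkain4 was 919 with total library size and 775 to 895 with 1 library left out. The difference in the Atp1b2 share between BAL101553 and Control, -0.0162 percentage points, lay between -0.074 and 0.0253 with 1 library left out, changing sign without Control 2 (0.00016) or Control 3 (0.0253). Of the listed pump genes, 5 were called after BAL101553, 1 to 5 with 1 library left out, and 31 in Astro, 20 with at least 10 counts in every library, where fewer genes were tested. Deviations of same-numbered libraries correlated weakly (r between 0.00508 and 0.129 for BAL101553 and Control, -0.0104 and 0.0689 for Astro and BAL101553). Differently numbered libraries had r between -0.156 and 0.0523 in the former comparison and between -0.072 and 0.0335 in the latter. The highest r in each comparison belonged to a same-numbered pair, so whether the numbers pair libraries is not settled. With a replicate block, 1371 and 12815 genes were called, and 3 listed pump genes in place of 5. Members with few reads could not be fitted under the strictest filter, and shares by protein length were not run. Other causes were not tested.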
